A study of Mus musculus with 48 samples.

Results

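The comparison described here is that of heterozygous IGF-1R R1096C mice (IGF-1R Het) with WT mice in the gastrocnemius muscle of females. Its members are 11 RNA-seq libraries, 5 from IGF-1R Het and 6 from WT muscle, of the 48 libraries in the series. They were chosen by tissue, sex and genotype as the labels give them, and a gene was tested where 20% or more of the 25 gastrocnemius libraries held 10 reads or more of it, which left 18323 of 57010 genes. All of the mice were C57BL/6J, 4 months old and fed ad libitum. The study's methods give a morning fast for its blots and plasma assays, and whether food was withdrawn before the sequenced muscle was taken is not given in the sources used here. The WT females carried no edited allele. The IGF-1R Het females carried 1 WT Igf1r allele and 1 allele in which CRISPR-Cas9 editing replaced an arginine by a cysteine, inherited through the germ line, so that muscle and every other organ of a Het animal carried it. The edited founders were backcrossed to WT C57BL/6J mice, and the cross that gave the sequenced animals is not given in the sources used here. The same comparison in males, 7 IGF-1R Het against 7 WT libraries of gastrocnemius, is used where it shows how the females differ from them, and shares no library with the females.

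IGF-1R is a receptor tyrosine kinase that binds IGF-1 and IGF-2 outside the cell and signals inside it through adaptor proteins of the IRS and SHC families. The IRS branch activates PI3K, AKT and mTORC1, which promote protein synthesis and hold FoxO transcription factors outside the nucleus, and the SHC and GRB2 branch activates RAS and ERK, which switch on immediate early genes such as Fos. In skeletal muscle the pathway is best known for setting fibre size, opposing the FoxO-driven ubiquitin ligases of atrophy, and supporting regeneration by satellite cells. The substituted arginine lies in the insert of the kinase domain.

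The codon of the substituted arginine is shown first, because the genotype is defined by it. In the GENCODE annotation of GRCm39, Igf1r runs from 67601518 to 67883416 on the forward strand of chromosome 7, and the codon occupies positions 67857607 to 67857609 in coding exon sequence of exon 17 of 21 in the canonical transcript. The reference sequence at chr7:67857577-67857639, read 5′ to 3′ with the arginine codon in capitals, is given next. The codons that follow encode proline and glutamate, and the last 18 bases of the stretch are intronic.
Igf1r: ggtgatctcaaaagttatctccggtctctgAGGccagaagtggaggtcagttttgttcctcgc
Counts per gene do not hold the base at this codon, so the genotype labels could not be checked against the reads.

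The libraries held 31917685 to 39469595 counted reads in WT and 32775748 to 40444565 in IGF-1R Het females, so depth did not separate the genotypes. Xist, the RNA that silences an X chromosome in females, ranged from 124 to 225 CPM (read counts scaled by library size) in the 11 libraries and was at most 7.39 CPM in the male gastrocnemius, and the summed level of 4 Y-linked genes was at most 0.599 CPM in the females against at least 85.0 CPM in the males, so all libraries carried the sex of their label. The labelled tissue was equally clear, with 110675 to 160214 CPM in the 8 skeletal muscle markers. Several libraries of both genotypes stood apart in genes of other cells. WT replicate 3 had 107 CPM in keratinocyte markers, against 1.49 to 8.13 CPM in the other WT and 0.819 to 4.13 CPM in the IGF-1R Het libraries, and WT replicate 6 had 1045 CPM in erythroid markers. WT replicate 2 had 107 CPM in liver markers, against at most 20.6 CPM in any other of the 11 libraries. Het replicate 1 had 221 CPM in immune markers, against 90.8 to 116 CPM in the other Het and 73.9 to 188 CPM in WT. Het replicate 2 had 964 CPM in tendon markers, against 137 to 473 CPM in the other Het and 73.0 to 413 CPM in WT. Several of the results that rest on 1 of these libraries are also given without it.

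No gene differed between IGF-1R Het and WT female gastrocnemius in edgeR's quasi-likelihood test after Benjamini-Hochberg adjustment (0 of 18323 genes at an adjusted p under 0.05, a background of 0%). At an unadjusted p under 0.05, 414 genes were counted, which is 2.26% of those tested, 163 of them (0.89%) higher and 251 (1.37%) lower in IGF-1R Het. The 5 Het values lay wholly outside the 6 WT values for 42 genes (0.229%), above them for 19 (0.104%) and below them for 23 (0.126%). The median log2 fold change over all genes was 0.0044. Other tools gave few calls: a likelihood ratio test called 3 genes, DESeq2 called 2, and the quasi-likelihood test without a filter on low counts called 1, all of them lower in IGF-1R Het. The immediate early gene Fos was in each of these sets.

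How closely a change was bounded depended on abundance. For 8611 genes (47.0%) the 95% interval of the fold change lay within 1.5-fold in either direction, and for 11467 (62.6%) within 2-fold. The share with an interval inside 1.5-fold was 95.7% among the 1987 genes above 64 CPM, 94.3% from 16 to 64 CPM, 67.9% from 4 to 16 CPM, 6.02% from 1 to 4 CPM, and 0% of 5447 genes under 1 CPM. No gene under 1 CPM therefore had an interval that excluded a 1.5-fold difference in both directions. The common biological coefficient of variation, the relative spread between animals beyond counting error, was 0.388 in WT and 0.419 in IGF-1R Het females.

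Principal components of the 11 libraries did not separate the genotypes. PC1 held 19.2% and PC2 16.04% of the variance of log2 CPM, and the difference between the group means was 0.145 within-group SD on PC1 (exact permutation test, two-sided, n = 6 and 5, p = 0.825, adjusted p = 0.976) and 0.0161 SD on PC2 (exact permutation test, p = 0.976, adjusted p = 0.976), where the smallest p the design allows is 0.00216. IGF-1R Het replicate 5 and WT replicate 2 lay at the low end of PC1, and IGF-1R Het replicate 1 and WT replicate 6 at the high end, so each end held both genotypes.

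**Figure D1:**
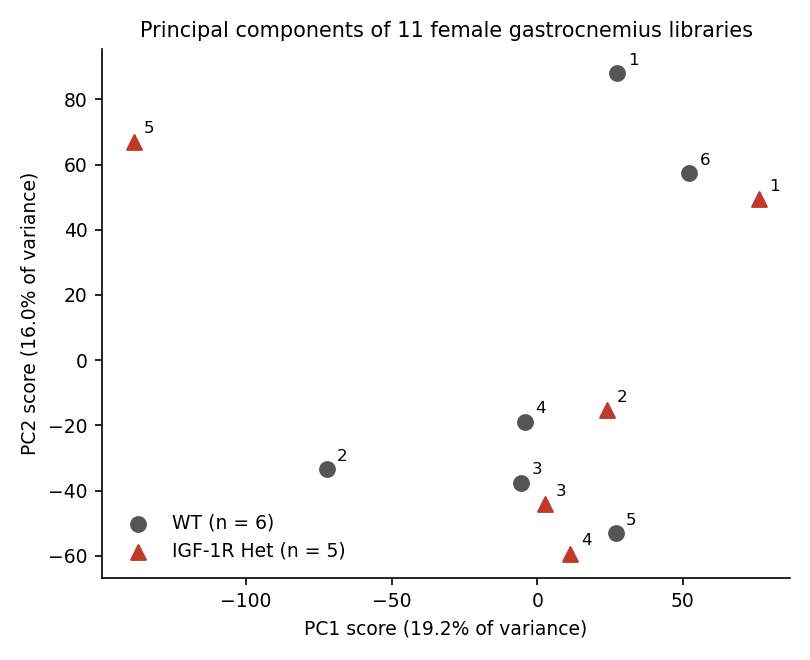
Scores of the 11 female gastrocnemius libraries on PC1 (19.2% of variance) and PC2 (16.04%), with grey circles for WT, red triangles for IGF-1R Het and replicate numbers beside the points. Both genotypes occur at both ends of PC1, whose group means differed by 0.145 within-group SD.

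Fos, whose protein pairs with JUN family members to form the AP-1 transcription factor, had the lowest p of any gene. In IGF-1R Het females it was at 3.77, 6.91, 4.33, 6.08 and 6.71 CPM, and in WT females the lowest value was 9.22, the median 14.3 and the highest 23.8 CPM. Every Het animal was below every WT animal. The means were 5.56 ± 1.43 (SD, n = 5) and 15.1 ± 5.05 CPM (SD, n = 6), a log2 fold change of -1.44 (SE 0.235, 95% interval -1.94 to -0.94), with an adjusted p of 0.375 in edgeR's quasi-likelihood test. The adjusted p for Fos was 2.66e-05 in DESeq2, 0.000199 in edgeR's likelihood ratio test and 0.0291 in the quasi-likelihood test over all genes with a read, so the call turned on the test and the filter while the log2 fold change stayed between -1.56 and -1.17 in all 23 alternatives. The value nearest 0 was that without both WT replicate 3 and WT replicate 6, and it was negative without either of them alone.

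The other immediate early genes with a low p were also lower in IGF-1R Het. Of the 20 on the list, 13 had a negative and 7 a positive log2 fold change, the median was -0.29, and 4 had an unadjusted p under 0.05, all lower in Het, against a background of 1.37% of all genes in that direction. None but Fos passed in any alternative. Junb, which encodes an AP-1 partner of FOS, was at 8.80, 7.73, 9.66, 11.3 and 8.75 CPM in IGF-1R Het, and WT ran from 11.3 through a median of 13.7 to 25.6 CPM. The groups met only near 11.3 CPM, with a log2 fold change of -0.73 (SE 0.195, edgeR adjusted p = 1), which was -0.52 without WT replicate 3, the highest library. Egr1, a zinc finger factor induced by serum and contraction, was at 5.62, 13.4, 11.3, 5.17 and 6.17 CPM in Het against 11.01 to 38.7 CPM with a median of 13.7 in WT. Only 2 of the 5 Het animals overlapped the WT range, and the log2 fold change was -1.06 (SE 0.345, edgeR adjusted p = 1), or -0.66 without WT replicate 3. Dusp1, a phosphatase that switches off MAP kinases, was at 84.1, 75.9, 64.2, 90.2 and 83.4 CPM in Het and at 89.8, 98.9 and 146 CPM as the lowest, median and highest WT value. A single Het animal, replicate 4, reached into the WT range, and the log2 fold change was -0.48 (SE 0.139, edgeR adjusted p = 1). Jun, Jund and Nr4a1 had log2 fold changes of 0.04, -0.08 and -0.08, so the low values were not shared by the whole list. The median of the list was -0.04 without 1 library (WT replicate 6), and -0.03 without WT replicates 3 and 6, while the count of 4 genes held in both cases. With WT replicates 2 and 3 as the only WT libraries it was 0.09, and 3 genes had an unadjusted p under 0.05, all lower in Het.

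In males the same genes varied more, and 1 animal set their direction. Fos ranged from 5.50 to 30.1 CPM in the 7 WT and from 0.532 to 180 CPM in the 7 IGF-1R Het males, where replicate 4 was at 180 CPM and the next animal at 30.7 CPM. The log2 fold change in males was 1.28 (SE 0.751), and the interaction of sex and genotype for Fos, male minus female, was 2.72 on the log2 scale with an unadjusted p of 0.0106 and an adjusted p of 1.00 in edgeR. For Junb the male log2 fold change was 0.79, for Egr1 0.95 and for Dusp1 0.47. Male Het replicate 4 was also the highest animal for each of these 3 genes, at 110, 164 and 229 CPM. The number in the label of that library is also that of a liver library labelled female and WT, while its Xist and Y-linked levels were those of a male. Without it the male log2 fold change was -0.33 (SE 0.543) for Fos, -0.16 for Junb, -0.40 for Egr1 and 0.10 for Dusp1, so the first 3 turned sign. The interaction for Fos was then 1.12 with an unadjusted p of 0.123 in edgeR, that for Junb 0.58, for Egr1 0.66 and for Dusp1 0.58, of which only Dusp1 had an unadjusted p under 0.05 (0.0435, edgeR adjusted p = 1). Across the list the interaction had an unadjusted p under 0.05 for 5 of 20 genes, against 3.38% of all genes, and none passed the adjustment. Without male Het replicate 4 this count was 2, and the median of the list in males was -0.33 in place of 0.34.

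**Figure D2:**
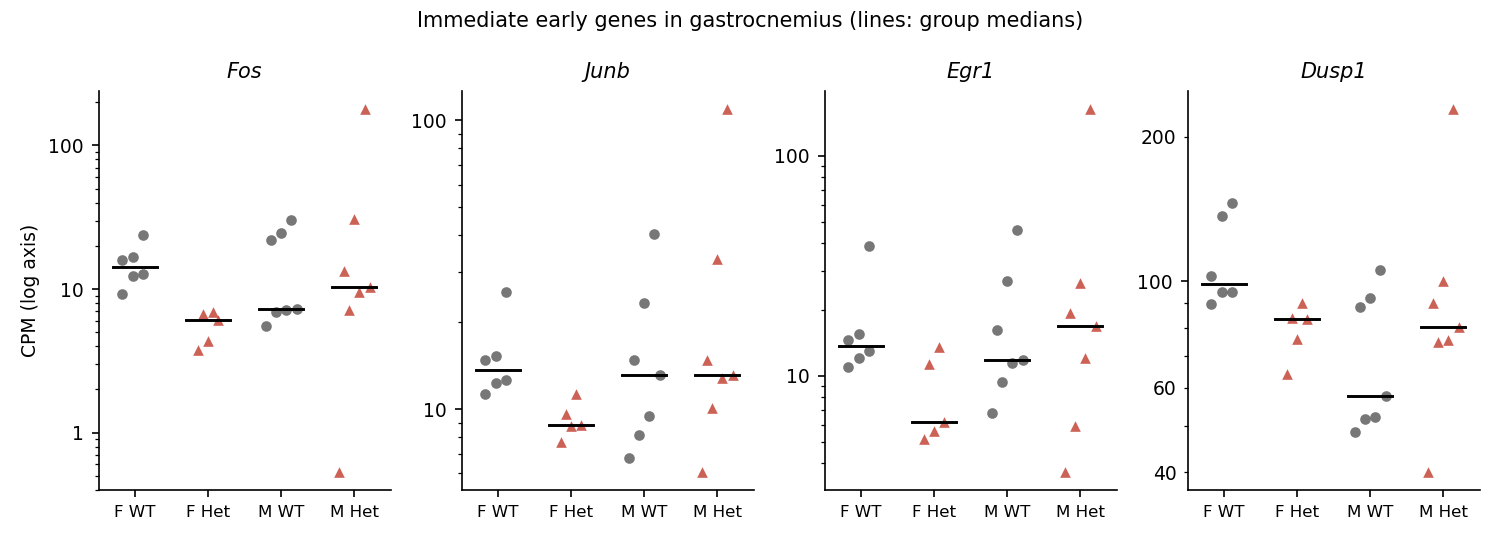
CPM on a log axis of Fos, Junb, Egr1 and Dusp1 in each gastrocnemius library, for female (F) and male (M) WT (grey circles) and IGF-1R Het (red triangles), with lines at group medians. The 5 Het females sit between 3.77 and 6.91 CPM for Fos, below all 6 WT females, while 1 Het male reaches 180 CPM.

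The promoters of Fos, Junb and Dusp1 are shown because these genes had low values in the same females. They come from RefSeq on GRCm38.p6, a build other than that of the counts, and cover 250 bases before to 50 bases after the annotated start, 5′ to 3′ on the strand of the gene. Capitals mark each TGACG, the core of the cAMP response element, searched on both strands (as TGACG or CGTCA), where adjoining or overlapping matches run together.
Fos (chr12:85473640-85473939, forward strand): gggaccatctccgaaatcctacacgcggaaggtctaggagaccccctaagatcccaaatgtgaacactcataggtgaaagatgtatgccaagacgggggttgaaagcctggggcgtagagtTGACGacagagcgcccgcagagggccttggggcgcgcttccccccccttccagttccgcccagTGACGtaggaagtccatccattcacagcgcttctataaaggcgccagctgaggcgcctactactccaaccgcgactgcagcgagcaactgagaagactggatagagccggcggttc
Junb (chr8:84978699-84978998, reverse strand): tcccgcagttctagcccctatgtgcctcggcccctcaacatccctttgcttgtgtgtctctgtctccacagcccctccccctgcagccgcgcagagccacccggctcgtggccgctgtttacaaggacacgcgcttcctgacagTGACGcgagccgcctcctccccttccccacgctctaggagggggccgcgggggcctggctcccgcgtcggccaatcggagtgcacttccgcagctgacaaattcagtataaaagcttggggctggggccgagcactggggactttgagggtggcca
Dusp1 (chr17:26508423-26508722, reverse strand): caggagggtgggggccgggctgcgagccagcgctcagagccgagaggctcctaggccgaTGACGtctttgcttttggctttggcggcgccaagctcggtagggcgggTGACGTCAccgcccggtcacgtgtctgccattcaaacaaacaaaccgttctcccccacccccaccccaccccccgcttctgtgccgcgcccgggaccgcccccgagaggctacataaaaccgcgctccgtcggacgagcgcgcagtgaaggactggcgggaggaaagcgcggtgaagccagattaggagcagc
Fos held 2 matches, Junb 1 and Dusp1 3. Of the 20 immediate early genes, 16 had 1 or more entries, and 12 of these held a TGACG in a promoter, against 23.0% of all 27025 genes with an entry of this length. A CArG box, the site read by serum response factor, was found for 2 of the 16 (12.5%), Egr2 and Zfp36, against 1.81% of all genes, and in none of the 3 windows printed. Sites more than 250 bases before a start were not searched, and Egr1 was among the listed genes without an entry. The search therefore does not show that these genes lack a CArG box. A match is a letter string and was not tested as a binding site.

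The 34 listed genes of the IGF axis itself were all tested and none passed. Of the 34, 19 had positive and 15 negative log2 fold changes with a median of 0.05, and for 18 (52.9%, against 47.0% of all genes) the 95% interval lay within 1.5-fold. The count with an unadjusted p under 0.05 was 2 (5.88%), both lower in IGF-1R Het, against 1.37% of all genes in that direction.

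Igf1r, the edited gene, was at 24.99, 23.6, 26.4, 29.5 and 18.8 CPM in IGF-1R Het and at 19.6, 27.6 and 36.7 CPM as the lowest, median and highest WT value. The groups overlapped almost wholly. The log2 fold change was -0.18 (SE 0.146, 95% interval -0.49 to 0.13, edgeR adjusted p = 1). Igf1, the ligand that muscle also makes for itself, was at 18.8, 23.8, 20.8, 19.4 and 16.9 CPM in Het and at 9.58, 17.4 and 27.7 CPM in WT (lowest, median, highest). The Het values lay inside the WT range, and the log2 fold change was 0.17 (SE 0.194, 95% interval -0.25 to 0.58). In males it was -0.40 (edgeR, unadjusted p = 0.0432), where 3.67% of all genes had an unadjusted p under 0.05, 1.44% lower in Het, and none an adjusted p under 0.05. Igf2, the other ligand and mainly a fetal one, was at 0.405 to 2.24 CPM over the 11 libraries.

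The receptors related to IGF-1R had intervals that included no change. Insr, which encodes the insulin receptor and forms hybrids with IGF-1R, was at 121, 97.7, 106, 108 and 79.7 CPM in Het and at 80.1, 103 and 110 CPM in WT (lowest, median, highest). Its log2 fold change was 0.06 (SE 0.116, 95% interval -0.19 to 0.31). Igf2r, which encodes the receptor that clears IGF-2, was at 89.4, 109, 104, 116 and 65.8 CPM in Het, and in WT the lowest was 102, the median 112 and the highest, replicate 1, 232 CPM. The log2 fold change of -0.43 (SE 0.208, 95% interval -0.87 to 0.02) was -0.18 without that replicate. Insrr, an orphan receptor of the family, was at 0.763, 0.446, 0, 0.567 and 0.509 CPM in Het and at most 0.545 CPM in WT, with a log2 fold change of 0.99 (SE 0.970, 95% interval -1.08 to 3.06), too rare for the difference to be measured closely. Per kilobase of exon, mean WT levels were 13.9 CPM for Igf2r, 7.12 for Insr, 1.74 for Igf1, 1.41 for Igf1r and 0.179 for Igf2, and the order was the same in Het, with Igf1 at 1.95 and Igf1r at 1.25.

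Among the 7 binding proteins, which hold IGFs in the circulation and at the cell surface, Igfbp5 was at 328, 479, 638, 402 and 530 CPM in Het and 250 to 638 CPM with a median of 449 in WT, ranges that coincide, with a log2 fold change of 0.09 (SE 0.208). Igfbp3, Igfbp4, Igfbp6 and Igfbp7 had log2 fold changes of 0.27, -0.19, 0.22 and -0.02, each with an interval that included 0. Igfbp2 had the larger value, -2.60 (edgeR unadjusted p = 0.0462, adjusted p = 1), but at a mean of 0.395 CPM in WT and 0.0600 CPM in Het it was near the limit of detection. The proteases and stanniocalcins that free or hold IGFs from binding proteins showed the same: Pappa (0.95), Pappa2 and Stc1 (0.82) were under 2 CPM on average and had intervals that reached below 0, and Stc2 (0.33) and Htra1 (-0.10) were closer to 0. Growth hormone signalling genes, which control Igf1 transcription, had log2 fold changes from -0.47 (Cish) to 0.23 (Socs2), with Ghr at -0.05 and Stat5b at 0.00.

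Of the 9 adaptors, Grb2 was the member with the most separated values. Grb2, which links activated receptors to the RAS exchange factor SOS, was at 64.1, 58.7, 62.5, 57.3 and 60.04 CPM in IGF-1R Het and at 64.2, 70.6 and 72.6 CPM in WT (lowest, median, highest). Every Het value was below every WT value, though by under 0.1 CPM at the boundary. The log2 fold change was -0.19 (SE 0.0734, 95% interval -0.35 to -0.03, unadjusted p = 0.0205, edgeR adjusted p = 1), and it stayed between -0.24 and -0.17 in all 23 alternatives. In males the log2 fold change was 0.02. Irs1 (0.18), Irs2 (0.05), Shc1 (0.06), Gab1 (0.05), Grb10 (-0.02) and Sos1 (-0.01) had intervals that included 0, and those of Shc1, Gab1, Grb10 and Sos1 lay within 1.5-fold.

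**Figure D3:**
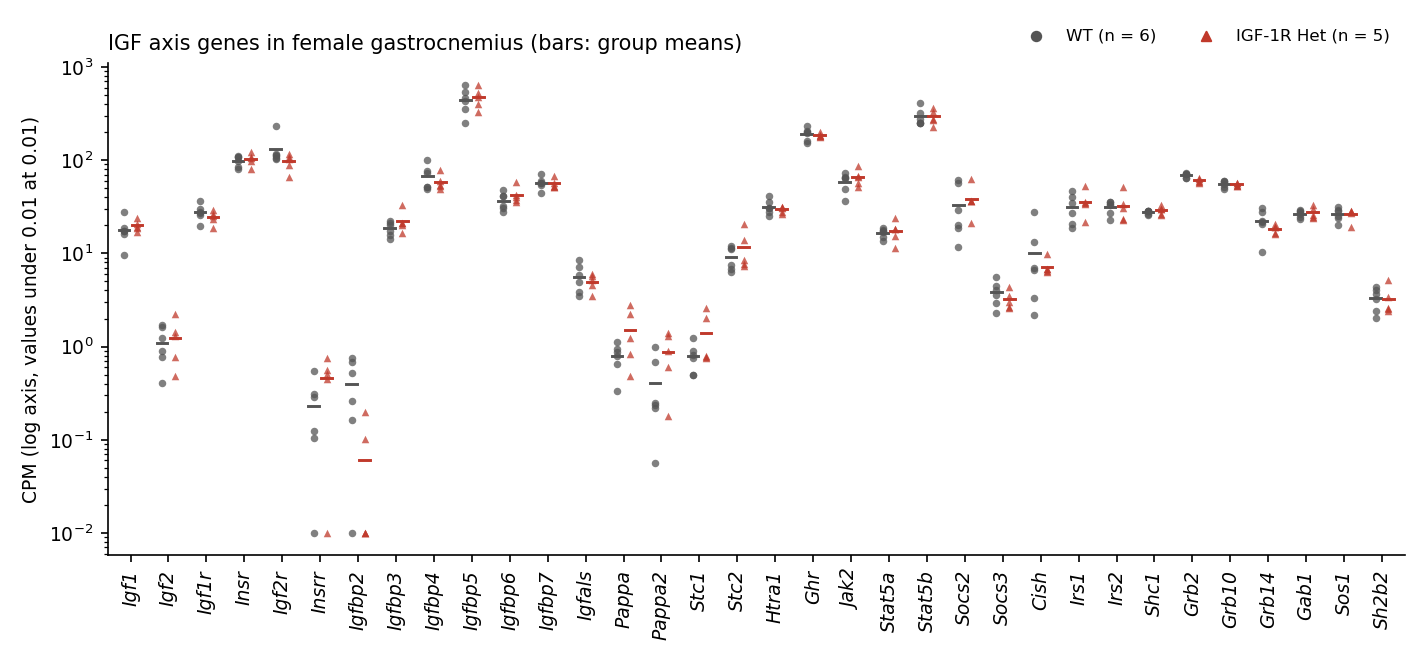
CPM on a log axis of the 34 IGF axis genes in each female gastrocnemius library, WT as grey circles (n = 6) and IGF-1R Het as red triangles (n = 5), with bars at group means. The groups overlap for every gene but Grb2, where all 5 Het values lie under the lowest WT value of 64.2 CPM.

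Downstream of the receptor, most transcripts of both signalling branches had intervals within 1.5-fold, and the genes that ERK induces were less closely bounded. Of 33 genes of the PI3K, AKT and mTOR branch, none had an unadjusted p under 0.05, the median log2 fold change was 0.01, the extremes were -0.19 (Rictor, a subunit of mTORC2) and 0.33 (Pik3r1, the regulatory subunit of PI3K), and 31 had an interval within 1.5-fold (93.9%, against 47.0% of all genes). Akt2, the AKT isoform of insulin-responsive tissue, was at 336, 313, 366, 302 and 298 CPM in Het and at 295, 305 and 389 CPM in WT (lowest, median, highest), with a log2 fold change of 0.03 (SE 0.0926). Mtor had a log2 fold change of 0.00 (SE 0.144), with IGF-1R Het replicate 5 at 35.1 CPM and the other Het animals at 60.4 to 67.9 CPM. In the RAS and ERK branch the 22 genes had a median of -0.08 with 14 negative values, none had an unadjusted p under 0.05, and all 12 genes of the kinase cascade had intervals within 1.5-fold. The 10 genes that ERK activity is known to induce as feedback, among them Dusp6 (-0.09), Spry2 (-0.18) and Etv5 (0.13), ranged from -0.44 (Etv4) to 0.31 (Dusp4). Of these 10, 7 were negative, the median was -0.11, and 6 had intervals within 1.5-fold. RNA levels do not report phosphorylation, which sets the activity of these proteins.

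FoxO targets and atrophy genes, which AKT holds down, had mostly small positive values. Of 25 genes 19 were positive, the median was 0.09, and 20 had intervals within 1.5-fold. Without Het replicate 1 the median was -0.05, with 10 of 25 positive. Trim63, which encodes the ubiquitin ligase MuRF1, was at 372, 217, 225, 323 and 278 CPM in IGF-1R Het and 191, 273 and 320 CPM in WT (lowest, median, highest), with a log2 fold change of 0.09 (SE 0.158). Fbxo32, which encodes atrogin-1, was at 530, 312, 385, 385 and 356 CPM in Het and 223, 335 and 464 CPM in WT, with a log2 fold change of 0.23 (SE 0.165). In both genes the highest Het animal was replicate 1. The 3 members with an unadjusted p under 0.05, against 2.26% of all genes, were Cited2, a CBP-binding coregulator (-0.40), Cdkn1a, the cell cycle inhibitor p21 (-0.62), and Gadd45a, a stress-induced gene of denervated muscle (0.29), and each had an adjusted p of 1 in edgeR. Gadd45a was at 23.0, 19.4, 25.3, 19.3 and 27.1 CPM in Het and 15.1, 19.1 and 22.6 CPM in WT females. It had the opposite sign in males (-0.40, SE 0.138), with an interaction of -0.70 (unadjusted p = 0.00110, edgeR adjusted p = 1.00). Ddit4, an mTORC1 inhibitor of stress and fasting, was at 109, 5.10, 3.27, 23.9 and 17.2 CPM in Het and 7.86, 12.1 and 45.3 CPM in WT, so its log2 fold change of 0.93 was -0.42 without Het replicate 1.

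Genes of muscle growth and regeneration did not separate the genotypes either. None of 32 had an unadjusted p under 0.05, and the median was -0.03. Mstn, which encodes the growth inhibitor myostatin, was at 60.9, 46.7, 60.3, 82.8 and 71.5 CPM in IGF-1R Het and at 44.5, 66.7 and 90.4 CPM in WT (lowest, median, highest), with a log2 fold change of -0.03 (SE 0.167). The myogenic factors Myod1 (0.23), Myog (-0.15), Myf6 (0.11) and Pax7 (-0.11), and the embryonic and neonatal myosins Myh3 (-0.60) and Myh8 (0.00), had intervals that included 0. The median of 15 tested myokines, the secreted factors of muscle, was -0.09 and none had an unadjusted p under 0.05, Fgf2 (0.24) having the lowest.

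Fibre type genes differed between animals more than between genotypes. The fast isoforms were narrow: of 14 genes, 12 had intervals within 1.5-fold, and Myh4, the fast glycolytic myosin, was at 42599, 62686, 65116, 68360 and 60815 CPM in IGF-1R Het and at 51977, 55981 and 69834 CPM in WT (lowest, median, highest), a log2 fold change of 0.01 (SE 0.123). Tnnc2, the fast troponin C, was counted at only 1.60 CPM in WT, and 68.7% of its exon bases overlap another annotated gene, so its value is uncertain. The slow isoforms were wide: 10 of 11 had negative log2 fold changes with a median of -0.29, none with an unadjusted p under 0.05. Myh7, the slow myosin, was at 736, 530, 489, 137 and 170 CPM in Het, and at 175, 460 and 1560 CPM in WT, where replicate 1 stood alone at the top. Leaving out WT replicate 1 turned the slow median to 0.15, leaving out Het replicate 1 gave -0.58, and with WT replicates 2 and 3 as the only WT libraries it was 1.02, with 11 of 11 positive and 7 at an unadjusted p under 0.05. The direction of the slow fibre genes thus depended on which WT animals were in the comparison. In males all 11 were positive, with a median of 0.46, or 0.21 without male Het replicate 4.

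Metabolic genes were among the most tightly measured. All 19 genes of mitochondrial beta-oxidation had positive log2 fold changes, from 0.02 to 0.24 with a median of 0.13, against 51.1% positive over all genes. None had an unadjusted p under 0.05, against 7 without Het replicate 5, and 18 had intervals within 1.5-fold. Leaving out any 1 library gave 16 to 19 positive values and a median from 0.05 to 0.18. Acadl, an acyl-CoA dehydrogenase, had 0.24 (95% interval -0.04 to 0.51) and Hadha, of the trifunctional protein, 0.17 (-0.07 to 0.42). Acadm, the medium-chain acyl-CoA dehydrogenase, was at 368, 375, 324, 278 and 255 CPM in Het and 266, 296 and 342 CPM in WT, so 2 of the 5 Het animals were above the WT range and 1 below it. Genes of one pathway are not independent of each other, and the same summed level over 35 fatty acid genes ran from 4929 to 9473 CPM in Het and from 5276 to 6853 CPM in WT, with Het replicate 1 the highest and Het replicate 5 the lowest. Cpt1b was at 2.10 CPM in WT with 68.5% of its exon bases shared with another annotated gene, so its value is uncertain. The 78 nuclear genes of oxidative phosphorylation had a median of 0.02, and 77 (98.7%) had intervals within 1.5-fold. The 13 mitochondrially encoded subunits had a median of -0.01. The 35 genes of glucose and glycogen metabolism had a median of -0.03. Of 15 glycolytic genes 13 were negative, with a median of -0.08 and no unadjusted p under 0.05.

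**Figure D4:**
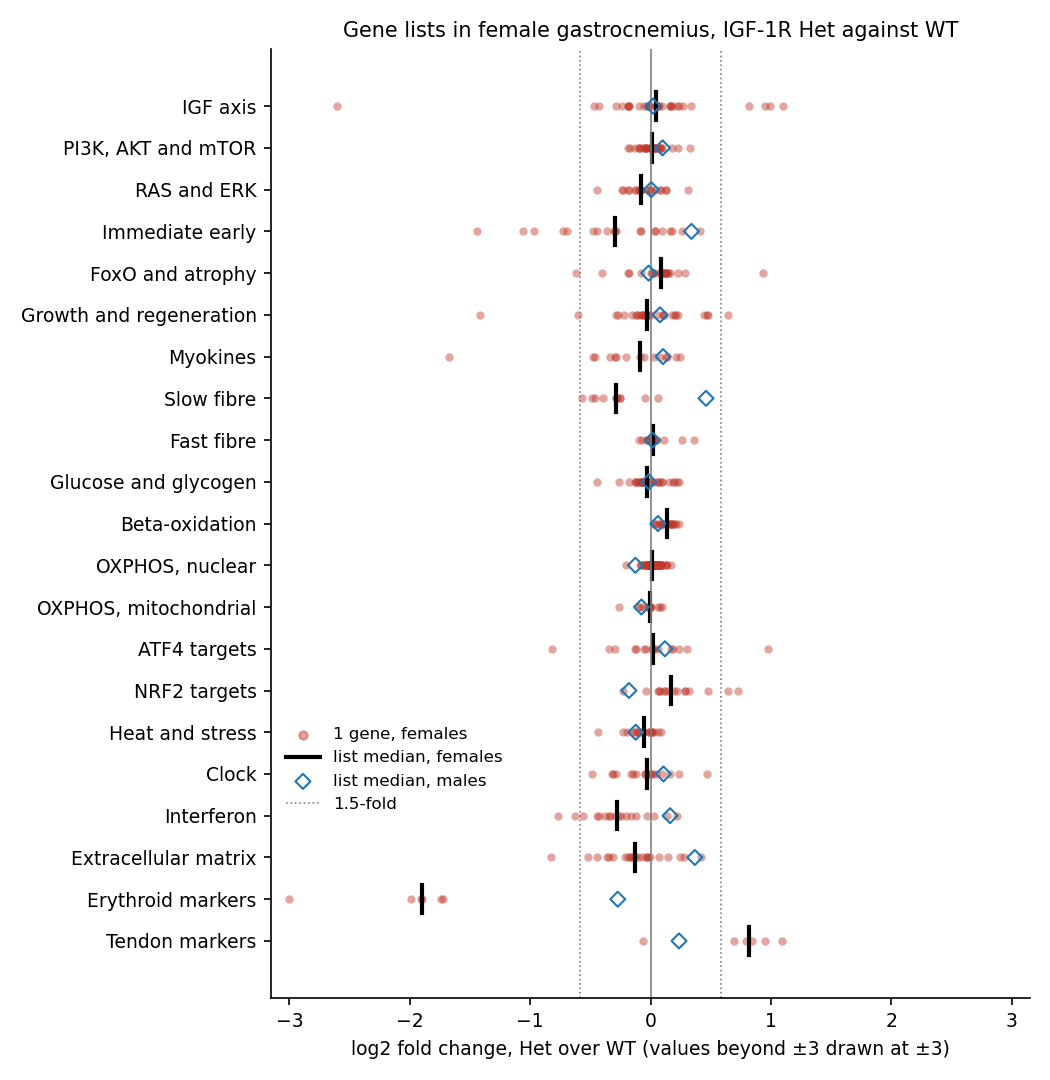
Log2 fold change of IGF-1R Het over WT in female gastrocnemius for each gene of 21 lists (red points), with the list median (black bar), the median of the same list in males (blue diamond) and dotted lines at 1.5-fold. Medians in females lie within 0.3 of 0 for all drawn lists but the erythroid (-1.90) and tendon (0.82) markers.

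Oxidative stress genes had higher values in some IGF-1R Het animals. Of 16 targets of NRF2, the factor that induces antioxidant and detoxifying enzymes, 14 had positive log2 fold changes, the median was 0.17, and 3 had an unadjusted p under 0.05, all higher in Het, against 0.89% of all genes in that direction. Srxn1, the enzyme that reactivates peroxiredoxins, was at 34.2, 94.6, 98.8, 41.2 and 59.0 CPM in IGF-1R Het and at 35.3, 39.3 and 46.0 CPM in WT (lowest, median, highest). Het replicates 2, 3 and 5 were above all WT animals and the other 2 were not, with a log2 fold change of 0.73 (SE 0.230, edgeR adjusted p = 1). Nqo1, a quinone reductase and a standard NRF2 target, was at 34.0, 73.4, 78.0, 23.4 and 35.4 CPM in Het and 21.9, 31.1 and 42.7 CPM in WT. The same replicates 2 and 3 were the highest, and the log2 fold change was 0.64 (SE 0.275, edgeR adjusted p = 1). Cat, which encodes catalase, was at 235, 221, 192, 146 and 115 CPM in Het and 100, 131 and 159 CPM in WT, with 3 Het animals above the WT range and a log2 fold change of 0.48 (SE 0.166, edgeR adjusted p = 1). Leaving out single libraries kept 14 of 16 positive, with 2 to 7 genes at an unadjusted p under 0.05 in edgeR, all higher in Het. With WT replicates 2 and 3 as the only WT libraries 10 of 16 were positive with a median of 0.05. In males 14 of the 16 were negative, with a median of -0.18, and the interaction had an unadjusted p under 0.05 for 5 genes, none of which passed the adjustment. The 16 ATF4 targets (median 0.02), which report the integrated stress response, and the 17 heat and stress chaperones (median -0.06) stayed near 0, with Phgdh, of serine synthesis, the lone member with an unadjusted p under 0.05 (-0.82).

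The circadian list held 2 genes with an unadjusted p under 0.05 among 18, both lower in Het, against 1.37% of all genes in that direction. Nr1d1, which encodes the repressor REV-ERB alpha, was at 79.4, 81.5, 120, 70.1 and 74.9 CPM in IGF-1R Het and at 93.2, 104 and 161 CPM in WT (lowest, median, highest). All but 1 Het animal, replicate 3, were below the WT range, with a log2 fold change of -0.48 (SE 0.175, edgeR adjusted p = 1), against 0.76 in males (interaction 1.24, unadjusted p = 0.00362, edgeR adjusted p = 1.00). Bhlhe40, a light- and activity-responsive repressor, had -0.31 in females and 0.40 in males. The core genes Bmal1 (-0.29), Clock (-0.32) and Per2 (0.24) had intervals that included 0. Clock genes depend on the hour of collection. The study's methods give 1 time of day, without its hour, for the mice of the liver protein work, and none for the sequenced muscle.

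Interferon-stimulated and matrix genes leaned negative on the strength of single animals. Of 18 tested interferon genes 15 were negative with a median of -0.27 and none had an unadjusted p under 0.05, and their summed level was 193 CPM in WT replicate 6, 84.1 to 108 CPM in the other WT and 87.4 to 102 CPM in the Het libraries. The median came to -0.03 when WT replicate 6 was left out. Of 23 extracellular matrix genes 18 were negative with a median of -0.13 and none had an unadjusted p under 0.05, with Col1a1 at -0.44 (95% interval -1.44 to 0.55) and Col3a1 at -0.52 (-1.14 to 0.11). The median was -0.26 without WT replicate 2 and 0.02 without WT replicate 6. In males 19 of the 23 were positive with a median of 0.37, and 11 had an unadjusted p under 0.05, all higher in Het, against 2.23% of all genes in that direction. The interaction had an unadjusted p under 0.05 for 7 matrix genes, among them Col5a1, Col3a1 and Col6a2, and none passed the adjustment.

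Markers of red blood cells, which are present in muscle as residual blood, had low values in IGF-1R Het females. All 6 erythroid markers were lower with an unadjusted p under 0.05, against 1.37% of all genes in that direction, with log2 fold changes from -7.66 to -1.72 and a median of -1.90, and none passed the adjustment. Hba-a1, an alpha-globin gene, was at 52.5, 37.3, 32.5, 58.2 and 24.7 CPM in IGF-1R Het and at 46.6, 121 and 433 CPM in WT (lowest, median, highest). Of the 5 Het animals 2 overlapped the lowest WT animals, and 4 WT animals were above all Het animals, with a log2 fold change of -1.99 (SE 0.492, edgeR adjusted p = 1). Hbb-bs, a beta-globin gene, was at 59.0, 53.4, 42.8, 82.6 and 43.5 CPM in Het and at 52.7, 158 and 419 CPM in WT, with a log2 fold change of -1.72 (SE 0.451). Alas2, the erythroid enzyme of heme synthesis, was at 3.21, 2.45, 2.47, 5.17 and 2.82 CPM in Het and at 2.67, 8.60 and 31.5 CPM in WT. Slc4a1, the anion exchanger of the red cell membrane, was at 57.1 CPM in WT replicate 6 and at most 0.524 CPM elsewhere, so its log2 fold change of -7.66 rested on that library. Reads can be shared between the near-identical copies Hba-a1 and Hba-a2, and between Hbb-bs and Hbb-bt, so the single copies are uncertain. How such shared reads were counted is not given in the sources used here, so the sums of the copies are uncertain as well. Without WT replicate 6 the count of markers with an unadjusted p under 0.05 was 5 of 6, and leaving out any 1 library gave a median from -2.12 to -1.32. In bulk muscle, less blood in the sample and less RNA per red cell cannot be told apart. In males the median was -0.27 and no marker had an unadjusted p under 0.05, and the interaction had an unadjusted p under 0.05 for 6 of 6, against 3.38% of all genes, or 5 of 6 without male Het replicate 4.

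The other cell type markers show which further cells varied between the samples. Endothelial (7 genes), fibro-adipogenic (5) and skeletal muscle (8) markers had all their intervals within 1.5-fold, with medians of 0.08, 0.08 and 0.00. Tendon markers had 5 of 6 positive values with a median of 0.82, summing to 964 CPM in Het replicate 2 and 137 to 473 CPM in the other Het animals, against 73.0 to 413 CPM in WT. The median was 0.20 without Het replicate 2. Adipocyte markers had a median of -0.36 over 7 genes and summed to 81.4 to 560 CPM in WT and 98.0 to 696 CPM in Het. Leaving out any 1 library gave a median from -0.88 to 0.0014. Lep, which encodes leptin, was the adipocyte gene with an unadjusted p under 0.05 (-1.80), with 65.2 CPM in WT replicate 1 and 1.91 to 19.6 CPM in the other WT against 2.34 to 13.03 CPM in Het. Immune (10 genes, median 0.05), satellite cell (4 genes, -0.04), smooth muscle (4 genes, 0.12) and neuromuscular junction markers (4 genes, 0.12) had no member with an unadjusted p under 0.05. Schwann cell markers were all negative, 6 of 6, with a median of -0.19, which was 0.02 without WT replicate 6. Keratinocyte markers were lower in Het (3 of 3 tested, unadjusted p under 0.05) and liver markers likewise (6 of 6 negative, 2 with an unadjusted p under 0.05), but Krt5 was at 25.3 CPM in WT replicate 3 and at 0 in 3 other WT libraries, and Alb at 89.9 CPM in WT replicate 2 and 2.49 to 17.6 CPM in the other WT. Without WT replicate 3 no keratinocyte marker had an unadjusted p under 0.05, and without WT replicate 2 the liver median was -0.27 in place of -1.15. Erythroid sums of 3 of the 5 Het animals were below every WT animal. The low p of the keratinocyte markers rested on WT replicate 3, and the size of the liver median on WT replicate 2. With any 1 library left out, at most 1 liver marker was positive. In these fits 1 to 2 liver markers had an unadjusted p under 0.05 in edgeR, lower in Het. The part of these cells in the values of the immediate early genes was not tested.

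**Figure D5:**
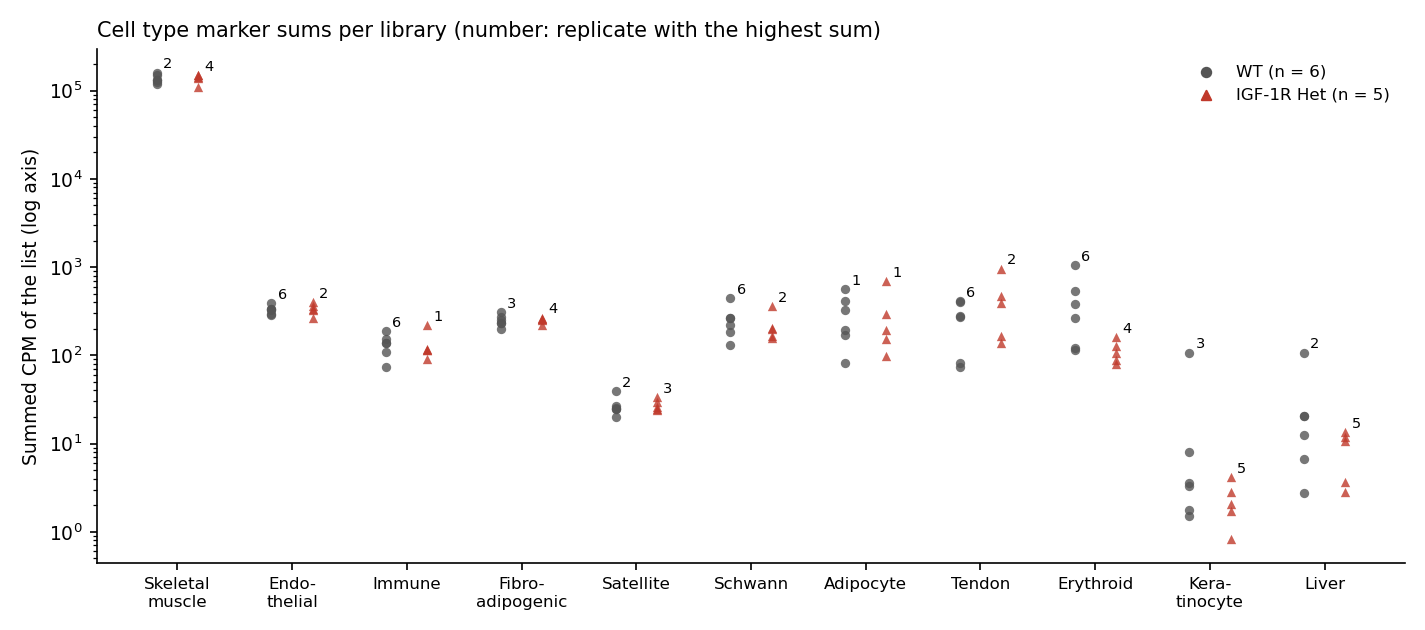
Summed CPM on a log axis of 11 cell type marker lists in each female gastrocnemius library, WT as grey circles and IGF-1R Het as red triangles, with the replicate number beside the highest library of each group. Erythroid sums run from 115 to 1045 CPM in WT and from 79.6 to 160 CPM in Het, and single WT libraries reach 107 CPM for keratinocyte and 107 CPM for liver markers.

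The genes with the lowest p after Fos came from no common pathway. F10, which encodes coagulation factor X, was at 0.124, 0.267 and 1.04 CPM in WT (lowest, median, highest) and had no read in any of the 5 IGF-1R Het libraries, where 100 reads were counted in WT. By library, F10 had 12, 28, 4, 8, 8 and 40 counts in WT replicates 1 to 6, the most in replicates 2 and 6. Against a floor of 3 reads over the Het group it was at least 26.9-fold lower, and its adjusted p was 1 in edgeR's quasi-likelihood test, 0.000236 in the likelihood ratio test and 0.00466 in DESeq2. The floor takes each count as a separate read, which is uncertain because 77.8% of the counts from 1 to 100 were even. In males F10 was at 0 to 0.925 CPM in WT and 0 to 0.402 CPM in Het. Casp12, an inflammatory caspase of the endoplasmic reticulum, was at 16.6, 13.7, 16.8, 13.5 and 14.6 CPM in Het and at 8.11, 8.97 and 13.2 CPM in WT. Every Het value was above every WT value, with a log2 fold change of 0.65 (SE 0.139, edgeR adjusted p = 1). In males the log2 fold change was -0.08, with an interaction of -0.74 (unadjusted p = 0.00137, edgeR adjusted p = 1.00). Cdk2ap1, a regulator of CDK2 and of the NuRD chromatin complex, was at 26.7, 27.6, 26.7, 30.1 and 27.4 CPM in Het and at 32.9, 34.5 and 38.9 CPM in WT, with no overlap and a log2 fold change of -0.34 (SE 0.0805, edgeR adjusted p = 1). Cbx3, which encodes the heterochromatin protein HP1 gamma, was at 23.2, 25.8, 24.2, 23.7 and 21.7 CPM in Het and at 17.3, 18.6 and 20.5 CPM in WT. It too did not overlap, with a log2 fold change of 0.34 (SE 0.0861, edgeR adjusted p = 1), and 16.9% of its exon bases overlap genes of the other strand. The uncharacterised D630045J12Rik (1.63) and Gm41750 (4.75), also among the 10 lowest p, were under 2 CPM in every library.

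Among genes without overlap and with a mean of at least 1 on the log2 CPM scale, the largest positive log2 fold changes were those of Morn4 (0.74), Fgf7 (0.72), Casp12, Snx16 (0.51) and Snrnp25 (0.49). Fgf7, a mesenchymal growth factor for epithelia, was at 5.29, 8.82, 6.18, 5.99 and 6.23 CPM in Het and at 2.74, 3.86 and 5.15 CPM in WT (lowest, median, highest). Morn4, at 2.697, 3.34, 3.47, 3.09 and 6.53 CPM in Het and 1.82 to 2.61 CPM in WT, had a log2 fold change of 0.46 without Het replicate 5. The largest negative values were those of Fos, Pfdn4 (-0.54), Kalrn (-0.36), Cdk2ap1 and Asb7 (-0.33). Pfdn4, a subunit of the prefoldin chaperone, was at 4.30, 4.36, 4.42, 4.60 and 4.01 CPM in Het against 4.75, 6.26 and 7.87 CPM in WT. Kalrn was at 11.4, 17.9, 18.5, 18.1 and 15.2 CPM in Het against 19.1, 20.6 and 23.4 CPM in WT. Each of these but Fos had an adjusted p of 1 in edgeR.

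No tested neighbour of the edited gene had a low p. Of the 14 neighbours without Igf1r itself, 6 had an interval within 1.5-fold (42.9%, against 47.0% of all genes). Of 45 annotated genes within 1 Mb of Igf1r on chromosome 7, 15 were tested, Igf1r included, and none had an unadjusted p under 0.05. Synm, an intermediate filament gene of muscle, had a log2 fold change of 0.05 (SE 0.117), Mef2a, a myogenic transcription factor, -0.04, Lrrc28 -0.11, Ttc23 -0.04, Lysmd4 -0.12 and Arrdc4 -0.14. Pgpep1l (-0.45) and Gm44669 (-0.17) were less abundant, and the 6 genes with a mean log2 CPM under 1 had values from -0.26 to 1.43 with wide intervals.

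The genes that varied most between animals of the same genotype were largely those of other cells than muscle fibres. Of the 15 with the largest within-genotype SD among genes of at least 3 on the log2 CPM scale, 7 are genes of tendon, cartilage and other matrix (Fmod, Comp, Chad, Angptl7, Prg4, Col12a1 and Itgbl1), and the others were Zbed6, a repressor of Igf2, Cidec and Pck1 of fat, Nnat, Hbb-bt and Ighm of blood cells, Alb of liver, and Ddit4. Chad, a matrix protein of cartilage and tendon, was at 9.69, 105, 31.3, 33.2 and 7.01 CPM in IGF-1R Het and 1.81, 17.8 and 34.5 CPM in WT, so that 1 Het animal, replicate 2, was far above all others. Ighm, the IgM heavy chain, was at 214, 29.6, 50.3, 55.1 and 96.7 CPM in Het and 21.2, 65.1 and 291 CPM in WT, the highest values being those of replicate 1 of each genotype. None of the 15 had an adjusted p below 1 in edgeR.

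The female and male log2 fold changes were set side by side over all genes. The Spearman correlation of the log2 fold changes over 18323 genes was -0.06, and -0.14 over the 11532 genes with a mean of at least 1 on the log2 CPM scale. It is given as a description, since genes are not independent replicates, and the female and male comparisons share no animals. The sign was the same for 46.6% of genes. Of the 163 genes higher in Het females at an unadjusted p under 0.05, 73 were higher in Het males and 2 of these at that level, where 2.23% of all genes were. Of the 251 lower genes 132 were lower in males and 3 of these at that level, against 1.44% of all genes. In the test of the interaction itself, 0 of 18323 genes passed edgeR's quasi-likelihood test (background 0%), DESeq2 called 0, the likelihood ratio test called 1, and 620 (3.38%) had an unadjusted p under 0.05. The 5 lowest interaction p were those of Dmkn, Gm41750, Npr3, Mcu and Sema6c. Dmkn, a gene of the epidermis, was at 24.7 CPM in WT replicate 3, the library with keratinocyte genes, at 0 to 0.452 CPM in the other WT females and at 0 in all Het females, so its value rested on that library. Mcu, which encodes the pore of the mitochondrial calcium uniporter, was at 28.9, 34.7, 30.3, 30.6 and 28.5 CPM in Het and 32.7, 38.9 and 42.7 CPM in WT females, a log2 fold change of -0.31 (SE 0.0910) against 0.23 in males. Sema6c, a semaphorin of muscle and nerve, had -0.31 in females and 0.60 in males, and Npr3, the clearance receptor of natriuretic peptides, -1.24 and 0.89. Each of these 5 had an adjusted interaction p of 1.00 in edgeR, and no single gene was shown to differ between the sexes in its response to the genotype.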

How the data were processed

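RNA of gastrocnemius muscle was extracted by the authors with TRIzol and the PureLink RNA kit, and polyadenylated RNA was sequenced. The deposited values are read counts per gene, which the authors made by mapping to GRCm39 with STAR 2.7.11b and counting with featureCounts 2.0.6 (per the submitters' processing notes). The annotation release, strand setting and treatment of multiply mapped reads are not given in the sources used here. Of the counts from 1 to 100, 77.8% were even, the reason for which is not given in the sources used here. Gene names and positions came from GENCODE (98.8% of 57010 IDs matched).

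Groups came from the labels. Genes with 10 reads or more in 20% or more of the gastrocnemius libraries were tested with edgeR 4.0.16 (TMM scaling, quasi-likelihood test, R 4.3.3), Het against WT within females, with Benjamini-Hochberg adjustment over all 18323 genes, and likewise in males and for the interaction. Levels are TMM-scaled CPM, and depth per library was 31917685 to 40444565 counts. The alternatives were RLE scaling, DESeq2 1.42.0, a likelihood ratio test in edgeR, other filters, all 4 gastrocnemius groups in 1 fit, the mitochondrial share or a surrogate variable (sva 3.50.0) as covariate, a replicate block, WT replicates 2 and 3 as the only WT libraries (a range of the library numbers in the labels), and each library left out. Principal components used log2 CPM (prior count 2), centred and scaled. The fit was tested on simulated data. Figures were drawn with matplotlib 3.10.9.

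Genes named are all list members, the 10 lowest p, the 5 largest changes each way among non-overlapping genes with p under 0.05 whose mean log2 CPM was 1 or more, neighbours within 1 Mb of Igf1r, the 15 largest within-genotype SD where mean log2 CPM was 3 or more, the 5 lowest interaction p, and genes called under any alternative. The comparison, the lists and their members were chosen with earlier results of these data known. The labels do not say that a replicate number marks a shared litter or day, and the liver libraries were not used here.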

Additional observations from a re-analysis of the deposited data

Results flagged for a closer look

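Within each genotype, the highest and lowest library were compared with their nearest neighbour, as the gap divided by the range of the group (against Dixon's 95% critical value for 5 Het and 6 WT libraries). Of 120 groups tested over 61 items, 25 had a library past that value. The rate of 1 in 20 behind that value holds for independent items with normally distributed values. Many items here were genes chosen from these data, and some were related to each other, so the count is a description and was not set against chance.

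WT replicate 3 accounted for 7 of the 25. It was the highest WT library for Junb (0.7242), Egr1 (0.8409), Casp12 (0.6905), Dmkn (0.9817), Krt5 (0.8721) and the summed keratinocyte markers (0.9374), and the lowest for the percent of mitochondrially encoded reads (0.6358, at 10.01% against 10.55%). For Casp12, which was higher in every Het than in every WT animal, WT replicate 3 at 13.2 CPM was the WT animal nearest the Het group, and the next was at 9.70 CPM.

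WT replicate 2 was the highest WT library for Akt2 (0.8295), the summed satellite cell markers (0.6304), the summed liver markers (0.8289) and Gm41750 (1), the last with a few reads where the other 5 had none. WT replicate 1 was the highest for Igf2r (0.8772) and Myh7 (0.7175), and WT replicate 6 for Ddit4 (0.8314).

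Among the Het libraries, replicate 1 was the highest for Foxo1 (0.7405), Ddit4 (0.8052) and the summed immune markers (0.8032, at 221 against 116 CPM). Replicate 2 was the highest for Fgf7 (0.7334), the summed Schwann cell markers (0.765) and the summed smooth muscle markers (0.7471), and replicate 3 for Nr1d1 (0.7733). Replicate 4 was the highest for Alas2 (0.7224) and Cdk2ap1 (0.711). Replicate 5 was the highest for Morn4 (0.7972) and the lowest for Mtor (0.7697, at 35.1 against 60.4 CPM).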

How the results depend on the processing

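The count of genes called in females was 0 in edgeR's quasi-likelihood test, 3 with the likelihood ratio test (Fos, F10 and Dmkn), 2 with DESeq2 (Fos and F10) and 1 without a filter on low counts (Fos), and 0 under every other alternative run, including each library left out (0 to 0), all 4 groups in 1 fit, both covariates, WT replicates 2 and 3 as the only WT libraries, and 2 alternatives chosen after seeing the data (counts halved, and WT replicates 3 and 6 both left out). The interaction gave 1 call with the likelihood ratio test (Dmkn) and 0 otherwise, and the male comparison gave 1 with DESeq2 (Krt5, at 0 in all Het males) and 0 otherwise. The share of genes with an unadjusted p under 0.05 in females ran from 1.36% (all 4 groups in 1 fit) to 6.40% (no filter). The PC1 difference was 0.0211 to 0.392 within-group SD with single libraries left out. With the replicate block the female count stayed 0 with 1.89% of genes at an unadjusted p under 0.05, the interaction count 0 and the male count 0. Same-numbered females correlated from -0.21 to 0.33 in their deviations. These values were not set against differently numbered females, so they do not decide whether the numbers pair the animals. Without WT replicate 3 the log2 fold change of Dmkn was -5.91 in place of -10.3. Male values of single genes and lists without male Het replicate 4 were added after seeing the data. Intervals were widest for genes under 1 CPM.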
